A study of Homo sapiens and Mus musculus with 41 samples.

Results

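The chemokines examined here are 10 secreted or membrane-shed proteins that draw neutrophils and other myeloid cells: CXCL1, CXCL2, CXCL3, CXCL5, IL8, CCL2, CCL20, CX3CL1, CXCL16 and CXCL17. They were taken by gene symbol, ignoring case, from 4 tables of normalized counts, and no measured value entered the choice. All 10 were among the 23368 genes of each human table, and 9 were among the 23337 genes of the mouse table, since IL8 has no mouse counterpart. The study measured polyadenylated RNA in 41 libraries of cultured carcinoma cells from 4 models of metastasis to the leptomeninges, the membranes that hold the cerebrospinal fluid.

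HCC1954 is a human grade III ductal breast carcinoma line with raised HER2/Neu, MDA-MB-231 a human breast carcinoma line without oestrogen receptor, progesterone receptor or HER2, PC9 a human lung adenocarcinoma line with raised EGFR, and LLC a mouse line, Lewis lung carcinoma, that arose in a C57/B6 animal. Each model had a parental line (Par), an intermediate stage derivative (Int), a leptomeningeal metastatic derivative (Lep) and a brain metastatic derivative (BrM). The libraries numbered 3 Par, 2 Int, 3 Lep and 2 BrM in HCC1954, 3, 2, 2 and 3 in both MDA-MB-231 and PC9, and 3, 2, 3 and 3 in LLC. Every parental line carried GFP. Cells washed out from the leptomeningeal space of mice were expanded on plastic until all of them were GFP-positive and were then passaged before RNA was taken, so the libraries describe tumour cells in culture and not cells in the cerebrospinal fluid. MDA-MB-231 and LLC cells grew in DMEM, HCC1954 and PC9 cells in RPMI1640, both with serum. How the BrM lines were isolated, and which round of selection Int stands for, the labels do not say. Par replicates are described as technical and Int and Lep replicates as partly biological and partly technical, so the p-values below measure the spread between these libraries. In bulk RNA of this kind, fewer cells expressing a gene and less RNA per cell cannot be told apart.

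CXCL1, CXCL2, CXCL3, CXCL5 and IL8 (interleukin 8, also named CXCL8) are CXC chemokines with the Glu-Leu-Arg motif, which act on CXCR2 and are best known for recruiting neutrophils. CCL2 recruits monocytes through CCR2, and CCL20 recruits CCR6-bearing lymphocytes and dendritic cells. CX3CL1 and CXCL16 are made as transmembrane proteins whose chemokine domains can be shed by ADAM10 and ADAM17, and they act on CX3CR1 and CXCR6, while CXCL17 is a mucosal chemokine that attracts myeloid cells. Many of these genes are induced by interleukin 1 and tumour necrosis factor through NF-kB.

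Because CXCL1, CXCL2 and CXCL3 differed in direction within one model below, their promoters are shown with those of the other cluster members CXCL5 and IL8 and with that of CCL20, a member outside the cluster. Promoters of 7 of the 10 members were found in the RefSeq table of human promoters (GRCh38.p14): these 6 and CXCL17. Each run gives the 120 bases before the annotated start, 5′ to 3′ on the gene's strand, with every GGAATTTCC in capitals, a run of letters of the kind bound by NF-kB dimers.
CXCL1, chr4:73869273-73869392, plus strand: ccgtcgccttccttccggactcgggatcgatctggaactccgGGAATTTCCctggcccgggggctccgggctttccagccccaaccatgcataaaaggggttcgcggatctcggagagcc
CXCL2, chr4:74099196-74099315, minus strand: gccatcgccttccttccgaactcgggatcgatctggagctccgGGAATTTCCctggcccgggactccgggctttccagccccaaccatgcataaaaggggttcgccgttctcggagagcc
CXCL3, chr4:74038690-74038809, minus strand: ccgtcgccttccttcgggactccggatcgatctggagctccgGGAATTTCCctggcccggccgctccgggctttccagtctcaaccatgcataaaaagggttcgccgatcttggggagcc
CXCL5, chr4:73998678-73998797, minus strand: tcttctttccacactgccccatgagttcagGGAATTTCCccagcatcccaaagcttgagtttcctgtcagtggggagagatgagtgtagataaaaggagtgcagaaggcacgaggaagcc
IL8, chr4:73740449-73740568, plus strand: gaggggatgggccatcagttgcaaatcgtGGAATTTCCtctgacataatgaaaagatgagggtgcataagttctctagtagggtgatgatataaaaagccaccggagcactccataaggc
CCL20, chr2:227813722-227813841, plus strand: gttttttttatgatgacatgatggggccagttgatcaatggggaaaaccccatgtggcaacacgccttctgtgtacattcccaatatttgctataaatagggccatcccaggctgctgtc
GGAATTTCC, read on both strands in all the bases before the start that the table holds, was in 5 of the 7 member promoters and in 0.413% of 35116 promoters. TGACTCA, the letters of an AP-1 site, was in 1 of the 7 (IL8) and in 4.2% of all. GGAATTTCC began 78 bases before the start in CXCL1 and in CXCL3 and 77 bases before it in CXCL2. The motif was picked after these sequences had been read, and a match is a description of letters and not a binding site. A promoter without GGAATTTCC, such as that of CCL20, may still hold other letters that NF-kB binds. The 3 genes are close copies: 4.81% of the 50-base windows of CXCL1 transcripts, 12.5% of those of CXCL2 and 6.01% of those of CXCL3 were also in a transcript of another member, and none of those of CXCL5 or IL8. At 75 bases, the read length of MDA-MB-231, the shares were 0.245%, 7.07% and 4.57%. Reads from such windows cannot be assigned by sequence alone, and the sources used here do not state how the authors' counting treated them.

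Recovered read totals ran from 16792027 to 110830546 per library, with the Int libraries the deepest in HCC1954, MDA-MB-231 and LLC. Libraries of MDA-MB-231 stood apart within their groups. The chi-square per degree of freedom between replicates reached 454 there (Par replicates 1 and 3), against at most 102 in LLC, 38.2 in PC9 and 19.1 in HCC1954. The library labelled MDA-MB-231 BrM replicate 1 had neutrophil chemokine values near those of Par and far under its 2 replicates. Some counts of called genes, and the Lep fits of CXCL1, CXCL2, CXCL3 and IL8, are therefore also given without it. The other fits quoted for that model include it. Gene values also followed transcript length to a different degree in different libraries. In MDA-MB-231 the rank correlation across genes of a library's deviation from the gene's mean with transcript length was 0.47, -0.35 and -0.45 in the 3 Par libraries. In PC9 it went with the stage, at 0.33 to 0.35 in Par, 0.27 to 0.40 in BrM, -0.48 and -0.43 in Int and -0.46 and -0.37 in Lep, so a fit with a length correction is given where it changes a call. EGFR, which the labels call raised in PC9, lay at 9147 to 9752 in PC9 Par, 1527 to 1928 in PC9 Lep and 11716 to 15117 in PC9 BrM, and VIM at 1827 to 2189 in PC9 BrM against at most 64.7 in the other PC9 libraries. In LLC the epithelial marker Epcam was at most 2.56.

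Levels below are normalized counts, which are not scaled to gene length, so levels are compared within a gene only. Calls rest on limma: the p, adjusted by Benjamini and Hochberg's method over all tested genes of the model, had to be below 0.05, and the log2 fold change at least 1 in size. Fold changes are on the scale of log2(normalized count + 1) ± standard error. The members that reached a level of 10 in at least 2 libraries, and so were tested, numbered 10 in HCC1954, 9 in MDA-MB-231, 7 in PC9 and 8 in LLC.

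Chemokine transcripts were called higher in the leptomeningeal derivative than in the parental line for most members in HCC1954 and LLC, and for CCL20 and CXCL17 in PC9. In HCC1954, 8 of 10 tested members were called higher in Lep than in Par and 1, CXCL1, lower, while 13% of all tested genes were called higher and 13.8% lower. The median log2 fold change was 2.14 over the members and -0.02 over all tested genes. In LLC, 6 of 8 were called higher (8% of all genes), with a median of 2.15 against 0.00. In PC9, 2 of 7 were called higher (6.65% of all genes), with a median of 0.70 against 0.02, and 5 of the 7 were higher at an unadjusted limma p below 0.05. In MDA-MB-231 limma called 0 of 9, with a median of 2.66 against -0.01 and calls for 0.0662% of all genes in either direction. At an unadjusted p below 0.05, 6 of the 9 were higher, edgeR called 0 and DESeq2 called 5 higher.

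**Figure D1:**
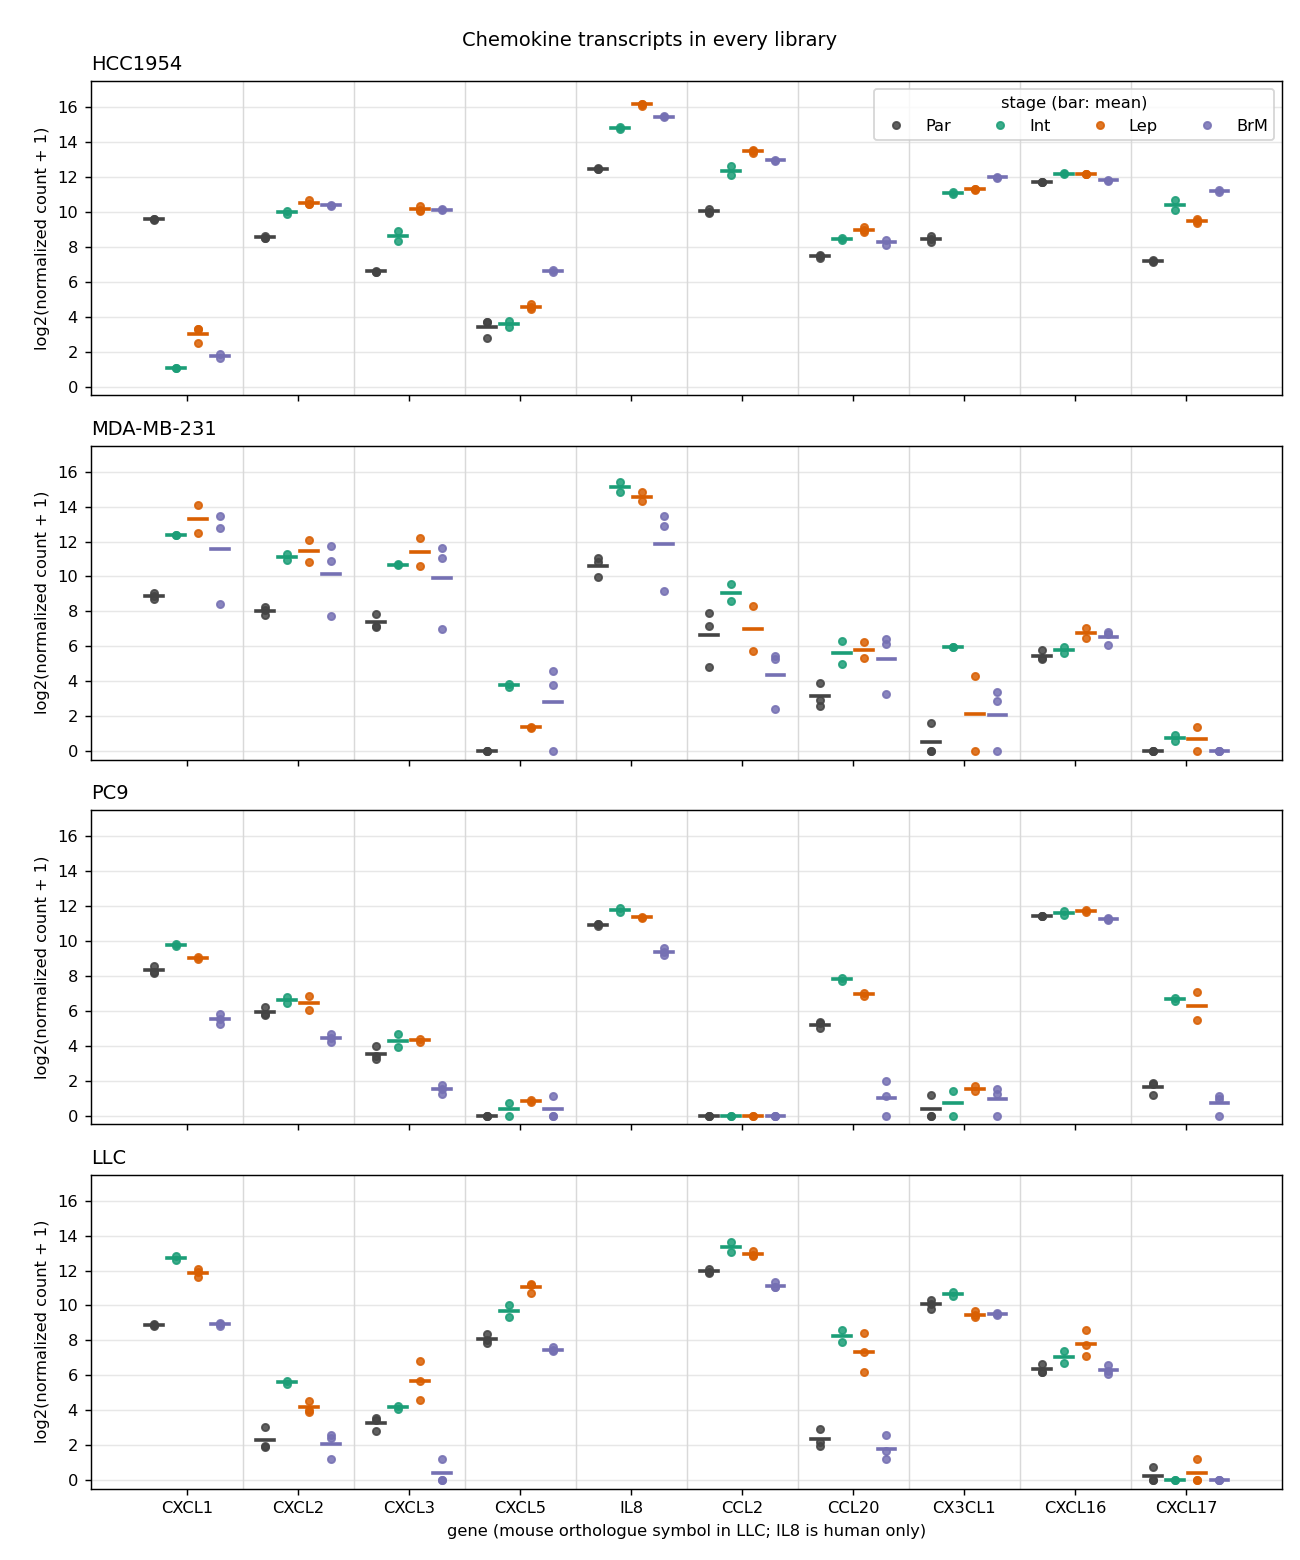
Level of each chemokine, as log2(normalized count + 1), in every library of the 4 models, with 1 point per library, 1 colour per stage and a bar at the mean of each stage. HCC1954 CXCL1 falls from 735 to 771 normalized counts in Par to at most 8.75 in every derivative library. The other HCC1954 members stay level or are higher. The MDA-MB-231 BrM points of CXCL1, CXCL2 and CXCL3 spread from Par-like levels to Lep-like levels.

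The neutrophil-attracting gene CXCL1 had the largest change of the 10 members in HCC1954, and it fell. CXCL1 measured 735, 771 and 771 in the 3 Par libraries, 1.05 and 1.05 in Int, 4.69, 8.65 and 8.75 in Lep and 2.59 and 2.09 in BrM. No derivative library came near a Par library. The log2 fold change from Par was -8.53 ± 0.27 in Int, -6.55 ± 0.24 in Lep and -7.83 ± 0.27 in BrM (limma adjusted p at most 2.16e-11). With 2 to 8 reads behind each derivative value, against 585 to 670 reads in Par, the order among the derivatives rests on few reads. CXCL1 was called 1.29 ± 0.27 higher in Lep than in BrM, a call that was absent with DESeq2, with a pseudocount of 5 and after quantile normalization.

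CXCL2, CXCL3 and IL8 rose in all 3 HCC1954 derivatives. CXCL2 measured 369.7, 357 and 393 in Par, 943 and 1082 in Int, 1388, 1379 and 1629 in Lep and 1355 and 1317 in BrM. CXCL3 measured 98.7, 93.6 and 93.6 in Par, 328 and 483 in Int, 1074, 1088 and 1290.1 in Lep and 1154 and 1099 in BrM. Every derivative library was above every Par library for both genes. IL8 measured 5749, 5537 and 5955 in Par, 28046 and 30223 in Int, 75841, 75774 and 68483 in Lep and 43644 and 46175 in BrM, with no overlap between any pair of stages. From Par to Lep, CXCL2 rose by 1.97 ± 0.07, CXCL3 by 3.58 ± 0.12 and IL8 by 3.67 ± 0.04 on the log2 scale (limma adjusted p 1.44e-11, 5.69e-12 and 1.55e-15). CXCL5 differed in its order: it measured 12.1, 5.92 and 11.9 in Par, 9.48 and 12.6 in Int, 21.1, 22.7 and 25.0 in Lep and 101 and 92.9 in BrM. CXCL5 was highest in BrM, by 3.22 ± 0.30 over Par, and Lep was lower than BrM by 2.03 ± 0.30. The rise of CXCL5 in Lep over Par, 1.18 ± 0.26, was 0.88 and not called without Par replicate 2.

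These genes lie in one cluster on human chromosome 4, in the order RASSF6, IL8, CXCL6, PF4V1, CXCL1, PF4, PPBP, CXCL5, CXCL3, CXCL2 and MTHFD2L among the protein-coding genes. CXCL1 is the 1 gene of this row that was lower in every HCC1954 derivative library than in every Par library. Its neighbour PPBP, another ligand of CXCR2, measured 0 to 3.55 in Par and 21.3 to 32.8 in Lep, and CXCL6, also a CXCR2 ligand, 0 to 3.29 in Par and 7.57 to 12.9 in Lep. PF4V1 was listed at 0 in every HCC1954 library and PF4 in every Par, Int and BrM library. The flanking genes RASSF6, at 258 to 289 in Par and 1384 to 1485 in Lep, and MTHFD2L, at 182 to 204 and 517 to 578, were higher in Lep as well. Over the 10 HCC1954 libraries CXCL2 and CXCL3 correlated at 0.98, CCL2 and IL8 at 0.995, and CXCL1 correlated negatively with each of the other 9 members (-0.95 to -0.52), a description over libraries that share their stage. CXCL1 and CXCL3 also share GGAATTTCC at the same distance from the start in the sequences above.

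**Figure D2:**
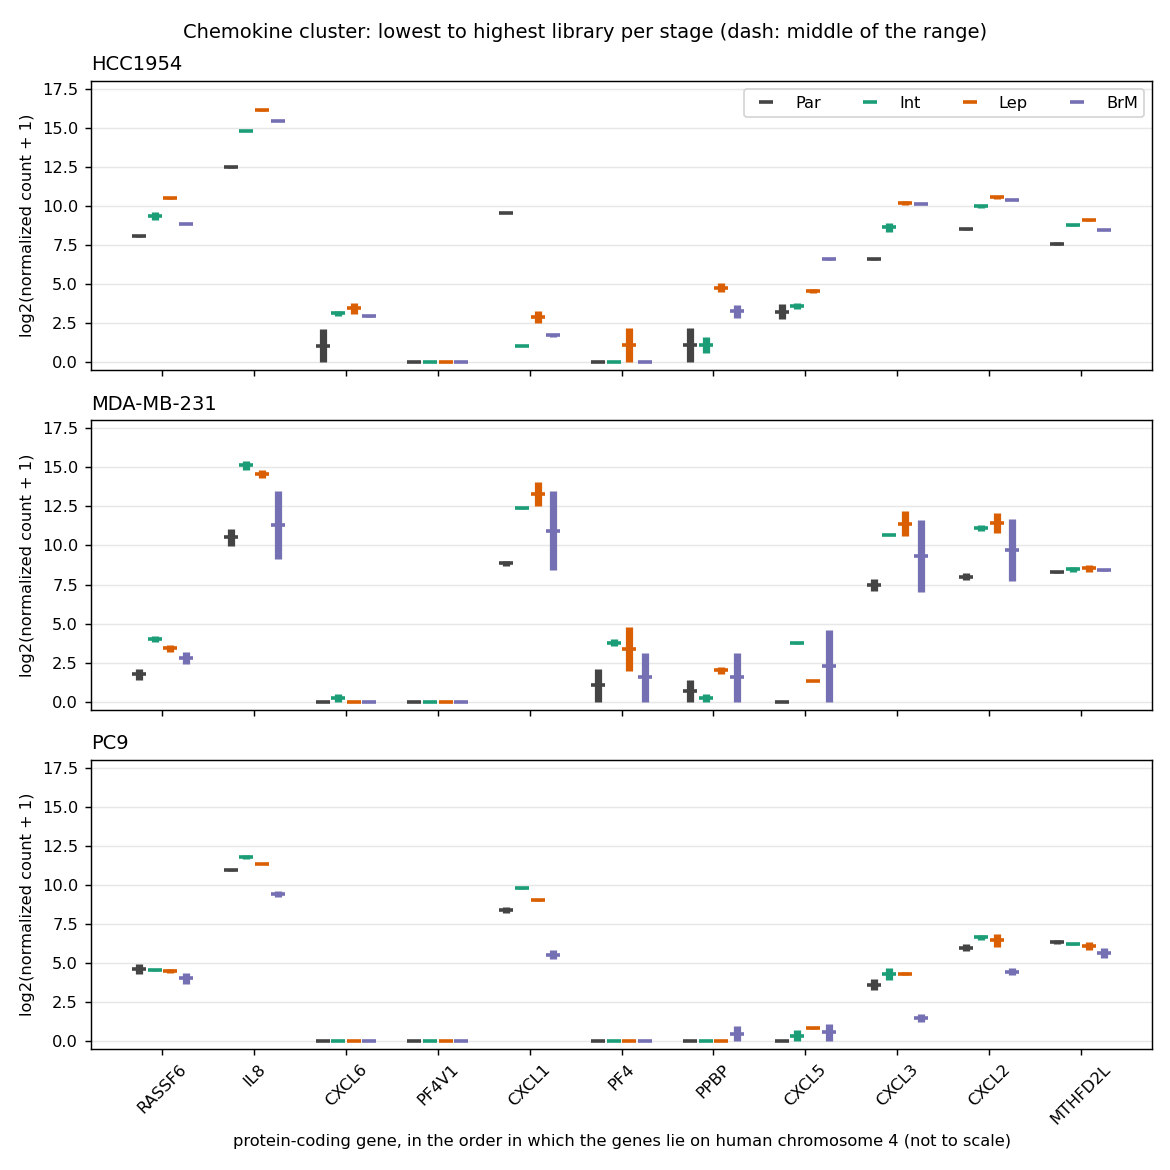
Range of log2(normalized count + 1) from the lowest to the highest library of each stage, for the protein-coding genes of the chemokine cluster in their order on chromosome 4, in the 3 human models. In HCC1954 only CXCL1 lies under its Par range in every derivative, whereas in PC9 CXCL1, CXCL2 and CXCL3 all lie under their Par ranges in BrM alone.

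In PC9 the tested neutrophil chemokines were on average highest in Int and lowest in the brain derivative. CXCL1 measured 288, 381 and 297 in Par, 915 and 848 in Int, 532 and 506 in Lep and 45.9, 36.8 and 55.9 in BrM, and the 4 stages did not overlap. CXCL1 rose by 1.46 ± 0.16 in Int (limma adjusted p = 6.43e-06), a change of 0.98 with the length correction that was no longer called. The Lep change of CXCL1, 0.70 ± 0.16 (adjusted p = 0.00233 by limma), was under the fold threshold. In BrM CXCL1 fell by 2.78 ± 0.15 (adjusted p = 2.05e-08 by limma). IL8 followed the same order, at 2019, 1975 and 1879 in Par, 3857 and 3224 in Int, 2594 and 2642 in Lep and 651, 595 and 762 in BrM, and fell by 1.55 ± 0.09 in BrM. CXCL2 fell by 1.48 ± 0.23 in BrM, from 72.4, 56.2 and 52.7 in Par to 17.7, 21.0 and 24.1. CXCL3 fell by 2.04 ± 0.36, from 8.58, 14.7 and 9.45 to 2.35, 1.31 and 1.93. Lep and Par libraries overlapped for CXCL2, at 114 and 65.2 in Lep, and CXCL3 lay at 17.6 and 20.1 in Lep, neither of them called. CXCL5 stayed at or under 1.18 in every PC9 library, from at most 1 read.

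In LLC Cxcl1 rose in the leptomeningeal line and not in the brain line. Cxcl1 measured 494, 445 and 466 in Par, 7195 and 6299.9 in Int, 3173, 3928 and 4315 in Lep and 497, 513 and 458 in BrM. Lep libraries lay under Int and above Par, and BrM overlapped Par. The change from Par was 3.01 ± 0.13 in Lep and 3.84 ± 0.15 in Int (limma adjusted p = 3.68e-08 and 5.92e-08), and 0.06 ± 0.13 in BrM (0.709 by limma). Cxcl5 had another order, with 325, 258 and 234 in Par, 1034 and 644 in Int, 2322, 1697 and 2379.7 in Lep and 171, 166 and 194 in BrM. Cxcl5 rose by 2.96 ± 0.21 in Lep and stood 1.37 ± 0.23 above Int, whereas Cxcl2 was lower in Lep than in Int. Cxcl2 measured 2.85, 2.66 and 7.13 in Par, 50.4 and 44.5 in Int, 14.1, 15.3 and 22.5 in Lep and 1.27, 4.37 and 4.94 in BrM, a rise of 1.89 ± 0.47 in Lep and of 3.32 ± 0.53 in Int. Cxcl3 measured 9.96, 10.6 and 5.94 in Par, 18.1 and 15.8 in Int, 49.8, 109.9 and 23.2 in Lep and 1.27, 0 and 0 in BrM, where the BrM values come from 1 read in all. The Par level of Cxcl3 was 17.3 times that of BrM, with an exact 95% counting interval of 2.91 to 702, and Cxcl3 rose by 2.42 ± 0.55 in Lep.

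In MDA-MB-231 the neutrophil chemokines were higher in both Int and both Lep libraries than in every Par library, with a wide spread in BrM. CXCL1 measured 411, 523 and 466 in Par, 5231 and 5324 in Int, 5768 and 17404 in Lep and 341, 11385 and 6881 in BrM. CXCL3 measured 140.1, 228 and 137 in Par, 1594 and 1699 in Int, 1559 and 4669 in Lep and 127, 3222 and 2124 in BrM. In both genes BrM replicate 1 was under every Par library and BrM replicates 2 and 3 were above all of them. CXCL2 ran the same way, at 217 to 302 in Par, 1804 to 4291 in Int and Lep, 212 in BrM replicate 1 and 1917 and 3369 in the other BrM libraries. Over the 10 libraries CXCL1 correlated with CXCL2 at 0.994 and with CXCL3 at 0.997. IL8 measured 1789.7, 2099 and 1020.5 in Par, 29474 and 44046 in Int, 29410.2 and 20129 in Lep and 570.4, 11397 and 7529.7 in BrM. CXCL5 had no read in the 3 Par libraries, 24 to 30 reads in each Int library (13.1 and 11.9 normalized counts), 2 in each Lep library and 0, 15 and 8 in BrM. Set against 3 reads over the Par group, the CXCL5 level was 11.8 times as high in Int, 12.4 times in BrM and 1.47 times in Lep. These ratios allow for counting error in Par only. The Lep ratio rests on 4 reads in all, too few to settle a rise there.

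None of these MDA-MB-231 differences between Lep and Par was called, with log2 changes of 4.43 ± 1.22 for CXCL1 and 3.96 ± 1.04 for IL8 and limma adjusted p of 0.256 and 0.243. BrM replicate 1 is in neither group of this comparison but enters the shared estimate of the spread. Without it, CXCL1, CXCL2, CXCL3 and IL8 were called in Lep at the same fold changes, with adjusted p of 0.00623, 0.0181, 0.0158 and 0.00536 (limma). The library was left out after its values of these same genes had been seen, so these calls give no separate support. In Int, IL8 rose by 4.52 ± 1.04 (adjusted p = 0.0333 by limma). Leaving out Par replicate 2, Par replicate 3, Int replicate 1 or Int replicate 2 left no member called in Int, and leaving out BrM replicate 1 raised the count to 7. With the length correction, 0 members were called in Lep and 7 in Int. Beyond these fits, the part of transcript length and of BrM replicate 1 in the differences was not tested.

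CCL2, the monocyte chemokine, rose in every HCC1954 derivative. CCL2 measured 1131, 1009.6 and 995 in Par, 4363 and 6299.7 in Int, 12136, 10727 and 11539 in Lep and 7862 and 8028 in BrM, and the stages did not overlap. The log2 change of CCL2 from Par was 3.46 ± 0.10 in Lep, 2.93 ± 0.11 in BrM and 2.33 ± 0.11 in Int (limma adjusted p at most 4.9e-10). In LLC, Ccl2 measured 3774, 3933 and 4382 in Par, 12705 and 8571 in Int, 7267, 7754 and 8944 in Lep and 2104, 2600.3 and 2104 in BrM. All Lep libraries of LLC were above Par, and the change of Ccl2, 0.98 ± 0.15 (limma adjusted p = 0.000301), fell just short of the fold threshold and passed it without Par replicate 3, Lep replicate 1 or Lep replicate 2. Ccl2 rose by 1.38 ± 0.17 in LLC Int. In MDA-MB-231, CCL2 measured 235, 142 and 27.5 in Par, 389 and 745 in Int, 313 and 51.6 in Lep and 4.29, 43.1 and 37.8 in BrM, with Par spread wide and Lep overlapping Par. CCL2 had no read in any PC9 library, which allows a level of up to 3 reads, or 1.89 to 4.05 normalized counts depending on the library. Such limits and the counting intervals cover counting error only.

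CCL20 had the largest rise of the tested members in LLC, in Lep as in Int. Ccl20 measured 2.85, 6.64 and 3.57 in Par, 243 and 384 in Int, 72.9, 340.0 and 158 in Lep and 1.27, 2.18 and 4.94 in BrM. Every Int and Lep library lay above every Par and BrM library, and Lep replicate 2 was the highest of its group. The log2 change of Ccl20 was 4.96 ± 0.54 in Lep (limma adjusted p = 2.44e-05), 4.40 without Lep replicate 2, and 5.90 ± 0.60 in Int. In PC9, CCL20 measured 39.2, 31.8 and 37.8 in Par, 211 and 238 in Int, 129 and 115 in Lep and 1.18, 0 and 2.89 in BrM, again with no overlap. CCL20 rose by 1.73 ± 0.42 in PC9 Lep (limma adjusted p = 0.00286) and by 2.60 ± 0.42 in Int. It fell by 4.19 ± 0.38 in PC9 BrM, where its values come from 4 reads in all, which limits that fold. In HCC1954, CCL20 ran from 165 to 185 in Par, 456 to 553 in Lep, 340 to 358 in Int and 276 to 334 in BrM, a rise of 1.51 ± 0.09 in Lep and smaller differences of 0.99 ± 0.10 in Int and 0.79 ± 0.10 in BrM, which were not called. In MDA-MB-231, CCL20 measured 5.04, 14.0 and 6.47 in Par and 39.8 and 74.7 in Lep, with an adjusted p of 0.355 (limma).

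Of the membrane-bound chemokines, CX3CL1 rose in HCC1954. CX3CL1 measured 397, 352 and 304 in Par, 2060.3 and 2271 in Int, 2574, 2596 and 2465 in Lep and 3989 and 4112 in BrM. The rise was 2.86 ± 0.07 in Lep, 2.63 ± 0.08 in Int and 3.53 ± 0.08 in BrM (limma adjusted p at most 1.02e-11). In LLC, Cx3cl1 measured 1263, 1097 and 902 in Par and 635, 694 and 822 in Lep, with every Lep library under every Par library. Its difference of -0.60 ± 0.15 (limma adjusted p = 0.00663) was under the fold threshold. Cx3cl1 was called lower in LLC Lep than in Int (1495 and 1720.1), with a difference of -1.17 ± 0.17. In MDA-MB-231, CX3CL1 was called higher in Int than in Par. It measured 60.8 and 61.9 in Int and 2.02, 0 and 0 in Par, from 2 reads in all in Par, a ratio of 86.7 with an exact counting interval of 23.8 to 720, and its limma adjusted p was 0.0382. In MDA-MB-231 Lep, CX3CL1 was 18.7 and 0, so the replicates split. In PC9, CX3CL1 reached at most 2.20, or 3 reads.

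CXCL16 stayed under the fold threshold in HCC1954 and PC9. In HCC1954 it lay at 3349 to 3373 in Par and 4625 to 4653 in Lep (0.47 ± 0.03, limma adjusted p = 2.02e-09), and in PC9 at 2773 to 2804 in Par and 3439 and 3174 in Lep (0.25 ± 0.07, limma adjusted p = 0.0108). In neither model did a Lep library overlap a Par library, but Int and Lep libraries overlapped in both. CXCL16 measured 4728 and 4536 in HCC1954 Int and 3393 and 2834 in PC9 Int. In BrM it measured 3543 and 3682 in HCC1954 and 2377 to 2537 in PC9. In LLC, Cxcl16 rose by 1.47 ± 0.34 in Lep, from 72.6, 73.03 and 97.5 in Par to 216, 383 and 137, and by 1.09 ± 0.29 without Lep replicate 2. LLC Int, at 165 and 105, overlapped Lep, and LLC BrM, at 66.0 to 93.9, overlapped Par. In MDA-MB-231, CXCL16 measured 38.3, 53.4 and 38.8 in Par and 132 and 88.9 in Lep. Lep did not overlap Par, and neither did BrM, at 66.5, 103 and 110, which overlapped Lep. Int, at 49.0 and 61.0, overlapped Par. Limma and edgeR called no comparison of CXCL16 there, with a limma log2 difference of 1.32 ± 0.33 and an adjusted p of 0.215 in Lep, while DESeq2 called it higher in Lep (adjusted p = 0.0132) and in BrM (adjusted p = 0.0244).

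CXCL17 was near the detection limit in PC9 Par and rose in Int and Lep. CXCL17 measured 1.23, 2.44 and 2.70 in PC9 Par, 93.7 and 107 in Int, 43.3 and 134 in Lep and 1.18, 0 and 0.963 in BrM, from 5 reads in all in Par and 2 in BrM. The log2 change of CXCL17 was 4.66 ± 0.51 in Lep (limma adjusted p = 5.04e-06) and 5.05 ± 0.51 in Int, and 4.22 and 4.59 with the length correction. In HCC1954, CXCL17 rose in all derivatives, most in BrM: it measured 143, 149 and 137 in Par, 1622 and 1097 in Int, 707, 760.1 and 666 in Lep and 2273 and 2441 in BrM. The rise of CXCL17 in HCC1954 was 2.31 ± 0.11 in Lep and 4.03 ± 0.12 in BrM, and Lep was lower than BrM by 1.73 ± 0.12 (limma adjusted p = 3.03e-08). CXCL17 was at or under 1.62 in every MDA-MB-231 library, and Cxcl17 at or under 1.28 in every LLC library, from at most 2 reads.

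**Figure D3:**
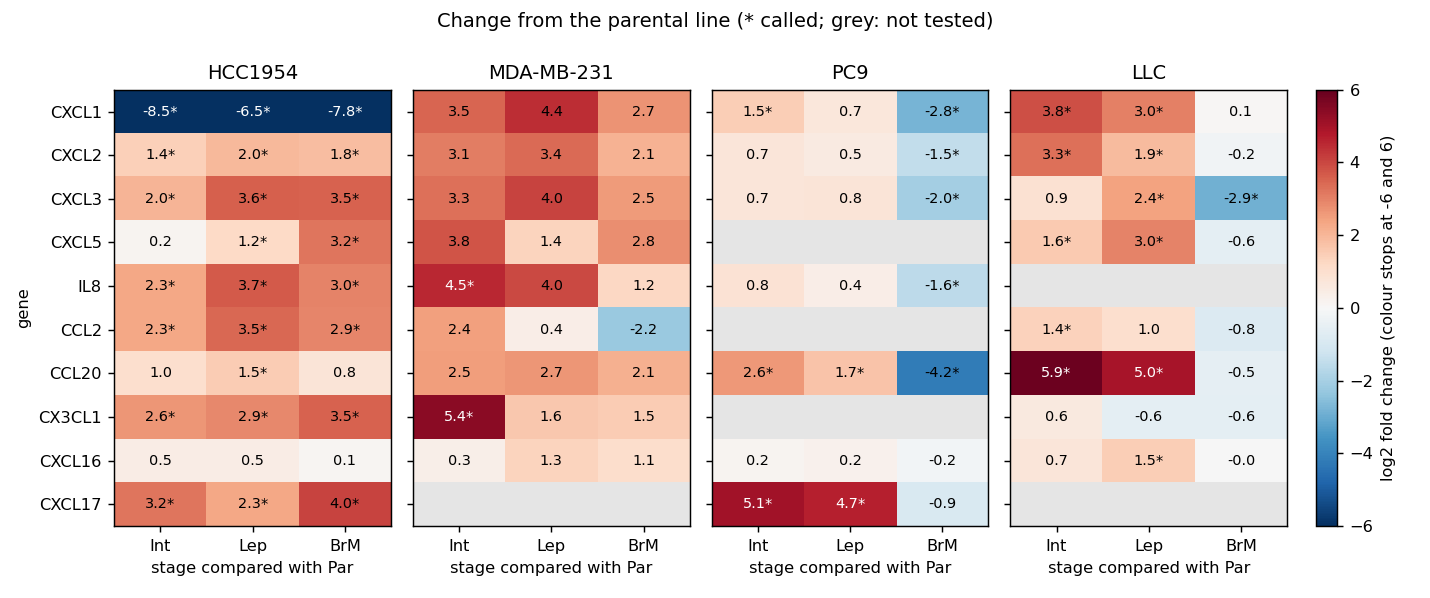
Log2 fold change of each member from Par to Int, Lep and BrM in the 4 models, with an asterisk where the change was called and grey where the member was not tested. HCC1954 CXCL1 is the single called decrease of a member in Int or Lep, and the called decreases in BrM are in PC9 (5 members), in HCC1954 (CXCL1) and in LLC (Cxcl3).

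The intermediate and brain derivatives placed the members differently in each model. Against Par, HCC1954 Int had 6 members called higher and 1 lower (6.6% and 14.6% of all tested genes), and HCC1954 BrM 7 higher and 1 lower (9.63% and 14%). In MDA-MB-231 Int, 2 of 9 were called higher (4.33% of all genes), and 7 with the length correction. In MDA-MB-231 BrM limma called 0 of 9 (0.45% of all genes in either direction), with 6 higher at an unadjusted p below 0.05, 0 by edgeR, 6 by DESeq2 and 5 without BrM replicate 1. In PC9 Int, 3 of 7 were called higher (6.24% of all genes), and in PC9 BrM 5 of 7 were called lower (3.1%). In LLC Int, 5 of 8 were called higher (6.4%), and in LLC BrM 1 of 8 was called lower (15.1%).

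Set against Int directly, no member was called in PC9 or MDA-MB-231. Limma called 0 of 7 members in PC9 (0.608% of all genes in either direction; 2 were lower at an unadjusted p below 0.05, and edgeR and DESeq2 called 0) and 0 of 9 in MDA-MB-231 (0.159%; 1 higher and 1 lower at an unadjusted p below 0.05, and 0 by edgeR and DESeq2). In HCC1954, 5 of 10 were called higher in Lep than in Int (11.7%): CXCL1, CXCL3, CXCL5, IL8 and CCL2, and 3 of 10 without Int replicate 1. In LLC, Cxcl5 was called higher in Lep than in Int (8.47%) and Cxcl2 and Cx3cl1 lower (14%), and the 3 called members became 5 without Lep replicate 3. Against BrM, Lep was higher for 6 of 7 members in PC9 (7.83%) and for 7 of 8 in LLC (11.1%). The single tested members not called there were CXCL16 in PC9 and Cx3cl1 in LLC. In PC9, the Lep to BrM change was 5.92 ± 0.42 for CCL20, from 4 reads in all in BrM, and 3.48 ± 0.16 for CXCL1. The CXCL17 level in PC9 Lep was 113 times that in BrM (exact counting interval 30.997 to 942). In LLC the Lep to BrM change was 5.50 ± 0.54 for Ccl20 and 3.57 ± 0.21 for Cxcl5. In HCC1954, 1 member was called higher in Lep than in BrM (10.5%) and 2 lower (6.54%), and in MDA-MB-231 limma called 0 of 9 (0.827% of all genes in either direction, with 1 higher at an unadjusted p below 0.05 and 0 by edgeR and DESeq2).

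Of 24 tested genes that induce or limit these chemokines, 13 were called higher and 1 lower in HCC1954 Lep than in Par (13% and 13.8% of all tested genes), and 10 were not called. Their median log2 change was 1.07. The cytokine genes IL1A, at 24.4 in Par and 1555 in Lep on average, and IL1B, at 109 and 5595, rose by 5.94 ± 0.29 and 5.67 ± 0.30. CSF2, the granulocyte-macrophage colony-stimulating factor gene, rose by 4.55 ± 0.23, the granulocyte colony-stimulating factor gene CSF3 by 3.46 ± 0.56 and IL6 by 2.88 ± 0.28. In LLC, 9 of 22 were called higher (8% of all tested genes), with a median of 0.24. Csf3 rose by 5.07 ± 0.60, Il1a by 3.23 ± 0.74, the NF-kB subunit gene Rel by 2.60 ± 0.38 and Csf2 by 2.43 ± 0.52, and Il6 was called higher from 0 reads in Par to a mean of 16.1 in Lep. In PC9, 3 of 23 were called higher and 1 lower (6.65% and 8.49% of all tested genes), with a median of 0.32. TNF rose by 2.19 ± 0.29, the NF-kB inhibitor gene NFKBIA by 1.21 ± 0.08 and NFKB2 by 1.14 ± 0.10, and REL fell by 2.32 ± 0.22.

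In MDA-MB-231 limma called 0 of 24 of these inducers in Lep (median 1.06; 13 higher at an unadjusted p below 0.05, 0 by edgeR, 8 by DESeq2 and 3 without BrM replicate 1). In MDA-MB-231 Int, 13 of 24 were called higher (4.33% of all tested genes), among them IL1B at 5.41 ± 1.04, CSF3 at 6.24 ± 1.47, CSF2 at 4.84 ± 1.05 and IL6 at 3.78 ± 0.81. These 4 were chosen after their values were seen, as the cytokines named in the other models.

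**Figure D4:**
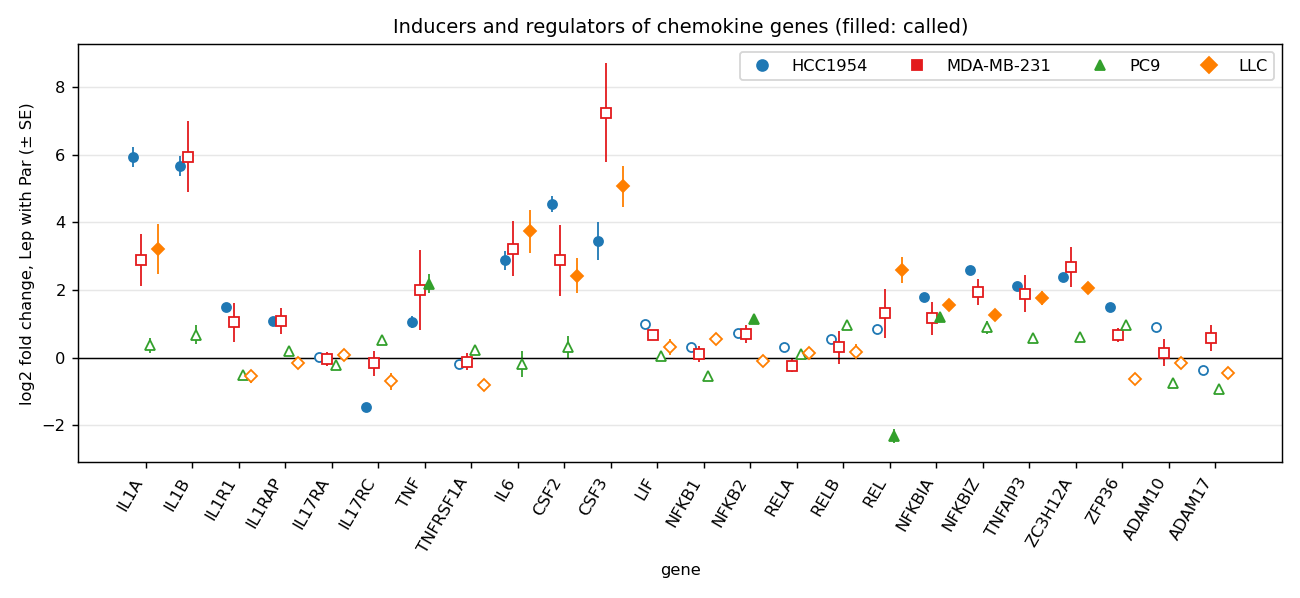
Log2 fold change from Par to Lep, with its standard error, of 24 genes that induce or limit chemokine transcription, with 1 symbol per model, filled where called. CSF3 and IL6 are filled in HCC1954 and LLC, no MDA-MB-231 symbol is filled, and REL points down in PC9 and up in LLC.

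Other chemokine ligands split. In HCC1954, 4 of 10 tested were called higher in Lep than in Par and 2 lower (13% and 13.8% of all tested genes), so the lower count lies near the share over all genes. CCL3 rose by 3.68 ± 0.32, PPBP by 3.38 ± 0.53, CXCL6 by 2.43 ± 0.47 and CCL28 by 1.12 ± 0.07, and the CXCR3 ligands CXCL10 and CXCL11 fell, from means of 55.8 to 3.36 and of 28.0 to 13.1. In LLC, 4 of 10 were called higher and 2 lower (8% and 12.3% of all tested genes). The monocyte chemokine Ccl7 rose from a mean of 256 to 2099.9, Ccl5 by 2.83 ± 0.37 and Cxcl10 by 2.40 ± 0.37, Ccl8 was called higher at means of 0.443 and 9.69, Ccl28 fell by 1.09 ± 0.24, and Cxcl15, a mouse neutrophil chemokine of the lung, fell from a mean of 75.1 to 1.51. Ccl28 is the one called LLC gene of this list outside the 5 with the largest changes, as CXCL11 is in HCC1954. In PC9, 1 of 4 was called higher (6.65% of all tested genes), CXCL10 (1.57 ± 0.53), a call lost without Lep replicate 2. In MDA-MB-231 limma called 0 of 6, with 3 higher at an unadjusted p below 0.05, 0 by edgeR and 2 by DESeq2.

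Between Par and Lep, receptor transcripts were called in HCC1954, PC9 and LLC. CXCR7, the scavenger receptor also named ACKR3, rose by 6.39 ± 0.44 in HCC1954 Lep, and Cxcr7 by 1.80 ± 0.23 in LLC Lep, while PC9 CXCR7 fell by 3.03 ± 0.58. CXCR4, the receptor of CXCL12, rose by 1.73 ± 0.24 in HCC1954, and LLC Cxcr4 fell from a mean of 51.7 to 2.41. The other called receptors were CCR7 (1.04 ± 0.41) and CCR1 (-1.12 ± 0.31) in HCC1954, the decoy receptor CCBP2 (1.22 ± 0.15) and CCR1 (-1.23 ± 0.47) in PC9 and Cx3cr1 (1.48 ± 0.57) in LLC. LLC Cx3cr1 rests on few reads, at 0.664 to 2.38 in Par and 12.8, 5.11 and 3.51 in Lep. It was 19.2 and 67.0 in LLC Int and 7.61 to 13.2 in LLC BrM. The counts of receptors called higher and lower in Lep were 3 and 1 of 7 in HCC1954 (13% and 13.8% of all tested genes), 1 and 2 of 6 in PC9 (6.65% and 8.49%) and 2 and 1 of 7 in LLC (8% and 12.3%). Single receptors called lower in HCC1954 and LLC thus lie near the share over all genes. The 4 receptor calls of HCC1954 became 2 without Par replicate 1, without Lep replicate 3 or with a pseudocount of 5. In MDA-MB-231 limma called 0 of 6, with 0 at an unadjusted p below 0.05 and 0 by edgeR and DESeq2. CXCR2, the neutrophil receptor of 5 members, was at most 3.24 in every HCC1954 library and listed at 0 in every MDA-MB-231 library.

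Markers of myeloid cells were measured beside these results. In LLC, where host cells are also mouse cells, the summed level of 8 neutrophil markers was 1.19 to 5.97 in Par, 4.502 to 6.03 in Int, 2.18 to 6.59 in BrM and 12.8, 43.5 and 4.92 in the 3 Lep libraries, and S100a9 was at most 0.711 in any LLC library. The summed level of 11 macrophage and microglia markers was 700 to 761 in Par, 5621 and 6008 in Int, 869, 1449 and 620 in Lep and 776 to 1015 in BrM, where the Int value is mostly Cd68, at 5159 and 5585. C1qa was at most 1.28 in LLC. Lep replicate 2, which had the highest Ccl20, Cxcl3 and Cxcl16 of the Lep group, also had the highest Lyz2 (408), Csf1r (48.6), Ptprc (21.7) and S100a8 (32.0) of the Lep group. All 6 members called higher in LLC Lep were called without that library too, Cxcl3 at 1.87 ± 0.52. In HCC1954 the summed level of 7 neutrophil markers was 108323 to 113067 in Par and 838322 to 902376 in Lep, nearly all of it S100A8 and S100A9. Of the other markers in that list, CSF3R was 5.27 to 13.2 in Par and 26.3 to 30.5 in Lep, CAMP was at most 13.6, ELANE at most 7.57, CXCR2 at most 3.24 and MPO at most 1.08. In PC9 the same sum was 19888 to 21553 in Par, 58516 to 69351 in Lep and 2923 to 3146 in BrM, again S100A8 and S100A9, with MPO and CXCR2 at most 0.963 and 0.629. In MDA-MB-231 it was at most 7.31.

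Other marker lists of the human models also differed between stages. In HCC1954 the sum of 10 macrophage and microglia markers was 2919 to 2994 in Par and 2578 to 2865 in Lep. Its members went different ways. EMR1 was 13.2 to 24.9 in Par and 91.3 to 98.5 in Lep. CSF1R was lower in Lep, at 102 to 115 in Par and 55.1 to 70.4 in Lep. So was CD14, at 163 to 189 in Par and 76.3 to 85.4 in Lep, and C1QA was listed at 0. In PC9 that sum was 3176 to 3319.8 in Par, 3054 to 3208 in Int, 3365 to 4694 in Lep and 2295 to 2469.6 in BrM. Within it, CD14 followed the stage order of the chemokines loosely, at 35.4 to 58.1 in Par, 172 to 176 in Int, 189 to 206 in Lep and 20.01 to 27.9 in BrM. ITGAM was 4.05 to 18.3 in PC9 Par, 68.6 to 73.7 in Int, 126 to 160.5 in Lep and 9.63 to 16.5 in BrM, while C1QA and TYROBP were listed at 0 in every PC9 library and PTPRC was at most 5.40. The sum of 5 endothelial markers in PC9 was 363 to 404 in Par, 979 to 996 in Int, 936 to 1264 in Lep and 388 to 408 in BrM, and PECAM1 among them was 90.5 to 94.0 in Par, 355 to 501 in Int, 461 to 549 in Lep and 0.963 to 2.35 in BrM. CD14, ITGAM and PECAM1 were thus higher in Int and Lep than in Par and BrM in PC9, as CCL20 and CXCL1 were. The PC9 macrophage sum did not share that order, since its Int libraries overlapped Par. FOLR1, of the choroid plexus list, was 25.6 to 33.8 in PC9 Par, 171 to 256 in Int, 157 to 189 in Lep and 4.82 to 19.7 in BrM, with the choroid plexus gene TTR listed at 0. In MDA-MB-231, PECAM1 was 29.6 to 37.3 in Par, 387 to 922 in Int and 69.5 to 261 in Lep. The sum of the 5 endothelial markers there lay within the Par range in Int and Lep. It was 7939.6 to 11576 in Par, 10322 to 10492 in Int and 9728 to 10088 in Lep. The macrophage sum was 7809.6 to 11949.6 in Par and 10224 to 14188 in Lep. The human tables count human genes, so they do not measure mouse host cells as such, and the part of these markers in the chemokine results was not tested.

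Genes whose pattern was most like that of the widest-ranging member were taken by Pearson correlation of log2(normalized count + 1) over the libraries of a model. In HCC1954 the gene most like CXCL1 was ATP2A3, an endoplasmic reticulum calcium pump gene, with r = 0.998 over 10 libraries and means of 1230.3 in Par, 1.31 in Int, 6.17 in Lep and 2.34 in BrM, followed by STMN3 (0.998) and LOC100505876 (0.997). In LLC the gene most like Ccl20 was Pou2f2, a POU-domain transcription factor gene, with r = 0.978 over 11 libraries and means of 6.52 in Par, 593 in Int, 331 in Lep and 5.16 in BrM, followed by Fam126a (0.977) and B4galt5 (0.975). In MDA-MB-231 the genes most like CX3CL1 were CSF1, the macrophage colony-stimulating factor gene (0.975, with means of 4930.2 in Par and 35518 in Int), KLRC2 (0.968) and ICOSLG (0.964). In PC9 those most like CCL20 were DDX5 (0.994), KPNA2 (0.993) and RRP36 (0.991), whose own levels differed little, with DDX5 means from 11174 in BrM to 16679 in Int.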

How the data were processed

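Polyadenylated RNA (500 ng per library, TruSeq v2) was sequenced from both ends, per the labels' protocols, with reads of 50 bases in HCC1954, PC9 and LLC and of 75 bases in MDA-MB-231. For each model the authors deposited a table of normalized counts, a signal equal to read counts divided by a size factor of each library. Per the submitters' processing notes, DESeq2, HTSeq 0.5.4 and FastQC 0.11.3 were used, with builds hg19 (GRCh37) and mm10 (GRCm38). The aligner was not given in the sources used here. Values were whole multiples of 1 step in each library (tolerance 0.01), so read totals were recovered from the deposited signal. The chemokines and the gene lists were chosen with earlier results of these data known.

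Genes that reached 10 in 2 or more libraries were kept, 15561 in HCC1954, 15106 in MDA-MB-231, 14475 in PC9 and 13494 in LLC. Log2(value + 1) was fitted over the 4 stages of each model with limma 3.58.1 (R 4.3.3), two-sided, with Benjamini-Hochberg adjustment over those genes. Calls needed an adjusted p below 0.05 and a log2 fold change of at least 1 in size. The fits were tested on simulated counts with the same spread between replicates in every model. The measured spread differed between models, so that test does not show how the fits behave in MDA-MB-231 or LLC. Alternatives were a replicate block, a transcript length correction, pseudocounts of 0.5 and 5, no filter, quantile normalization, the 2 compared groups only, each library left out, and edgeR 4.0.16 and DESeq2 1.42.0 on the recovered reads. Leaving out MDA-MB-231 BrM replicate 1 from comparisons without that group was chosen after seeing the data. All members were described. Of each list, up to 5 called genes with the largest change in Lep were named, and exceptions are stated. For likeness, the 3 most correlated genes with a group mean of at least 100 were named.

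Same-numbered libraries of MDA-MB-231 Par and BrM correlated in their deviations from the group means at 0.23 to 0.50 over 3 pairs. Par replicate 3 correlated more with BrM replicate 2 (0.34) than with BrM replicate 3 (0.23). The data thus do not settle a pairing by number, and no label gives one. The other 51 same-numbered pairs lay between -0.11 and 0.37. Where a group held 2 libraries, their deviations mirror each other, so these pairs are not all separate evidence. The length trend and the correction used the longest transcript of each gene.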

Additional observations from a re-analysis of the deposited data

Results flagged for a closer look

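The following members were called in opposite directions in different models under the same contrast, with the libraries of each derivative on opposite sides of their own Par libraries. The difference between models was not tested, since each model was normalized on its own. CXCL1 between Par and Int had a log2 fold change of -8.53 in HCC1954, 1.46 in PC9 and 3.84 in LLC. CXCL1 between Par and Lep was at -6.55 in HCC1954 and 3.01 in LLC. Between Par and BrM, CXCL2 was at 1.84 in HCC1954 and -1.48 in PC9, and IL8 at 2.97 in HCC1954 and -1.55 in PC9. CXCL3 between Par and BrM was at 3.55 in HCC1954, -2.04 in PC9 and -2.87 in LLC, where the LLC value rests on 1 read in BrM.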

How the results depend on the processing

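Most counts of called members kept within 1.5 times of their value in every alternative, and the exceptions lie mainly in MDA-MB-231. With DESeq2, 5 members were called in MDA-MB-231 Lep against Par, and 6 in BrM against Par, in place of 0. In MDA-MB-231 Int against Par, the 2 called members became 7 with the length correction, 5 with the replicate block and length correction, 6 with the 2 groups alone, 4 with edgeR and 7 with DESeq2. The replicate block alone gave 3 there, and 0 in MDA-MB-231 Lep and BrM against Par. Leaving out 1 library gave 0 to 4 members in MDA-MB-231 Lep, 0 to 7 in Int and 0 to 5 in BrM against Par, 3 (without Int replicate 1) to 6 in HCC1954 Lep against Int and 2 to 5 (without Lep replicate 3) in LLC Lep against Int. The highest MDA-MB-231 counts came without BrM replicate 1. Of the gene lists in Lep against Par, HCC1954 ligands went from 6 to 12 without a filter, and HCC1954 receptors from 4 to 2 with a pseudocount of 5 (2 to 4 with 1 library left out, 2 without Par replicate 1 or Lep replicate 3). MDA-MB-231 ligands went from 0 to 2 with DESeq2. MDA-MB-231 inducers went from 0 to 1 with the length correction, alone or with the replicate block, to 2 with the 2 groups alone and to 8 with DESeq2 (0 to 3 with 1 library left out, 3 without BrM replicate 1). PC9 ligands went from 1 to 2 with the replicate block, a pseudocount of 0.5, quantile normalization or DESeq2, and to 3 without a filter (0 without Lep replicate 2 to 3 without Lep replicate 1). PC9 inducers ran from 4 to 7 (without Lep replicate 1). HCC1954 CXCL5 in Int against Par changed sign, to -0.12 without Par replicate 2 and -0.0052 without Int replicate 2 (highest 0.37, without Int replicate 1). The cause was not tested. The length correction was not run for LLC, where 0.41% of genes had a length. CX3CL1, CXCL5 and CXCL17 in MDA-MB-231 and PC9 rest on few reads, which limits their folds. The same holds for CCL20 and CXCL3 in PC9 BrM, Cxcl3 and Ccl20 in LLC BrM, Cxcl2 in LLC Par and BrM and CXCL1 in the HCC1954 derivatives.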
